A study of Homo sapiens with 8 samples.

Results

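The transcripts described here encode the mitochondrial ribosomal proteins. All protein-coding genes whose GENCODE symbol is MRPL or MRPS followed by a number, with or without a letter, were taken, which gave 78 of the 57992 genes in the files. Of these, 49 carry an MRPL symbol (large subunit) and 29 an MRPS symbol (small subunit), and they lie on 21 chromosomes. RNAseq was performed on RKO cells, an established human colon carcinoma line with intact beta-catenin signaling, to ask which transcripts depend on A20 after wnt3a. A20, encoded by TNFAIP3, is a ubiquitin-editing enzyme that restrains NFkB signaling. Cells received control siRNA (4 samples) or A20 siRNA (4 samples), and both groups were stimulated with recombinant human wnt3a at 50 ng/mL for 24 hours, so no sample without wnt3a was compared. Libraries were made from 500 ng of total RNA with poly(A) capture and sequenced as single reads. Each group is a single cell line with transient knockdown. The sources used here do not say whether the replicates were separate cultures, so p-values and SDs may measure technical spread only.

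Mitochondria carry a ribosome of their own, descended from a bacterial ribosome, which translates the few mRNAs of the mitochondrial genome into membrane subunits of the respiratory chain and ATP synthase. Its RNAs are encoded by mitochondrial DNA, but every one of its proteins is encoded in the nucleus, made in the cytosol and imported. Part of these proteins have a bacterial counterpart and the others were acquired by the mitochondrial particle. Proteins of the large subunit lie around the peptidyl transferase centre and help to form the stalk that recruits translation factors. They also help to form the central protuberance and the exit tunnel, where the new chain meets the inner membrane. Proteins of the small subunit lie around the decoding site and the mRNA entry.

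Total counts on genes were between 21226451 and 34194273 per sample and the groups overlapped, so 3 counts, the smallest number read as detected, stood for 0.0877 to 0.141 CPM, the count after scaling all libraries to one size. All replicate pairs of a group were further apart than counting noise alone gives (chi-square per degree of freedom 1.31 to 3.69), so none was a library deposited again. TNFAIP3 had 4.92, 5.83, 5.59 and 5.54 CPM with control siRNA and 3.47, 3.01, 3.40 and 3.43 CPM with A20 siRNA. Every A20 siRNA sample lay below every control sample (edgeR: log2 fold change -0.71, adjusted p = 0.00258; exact two-sided permutation p = 0.0286, the smallest that 4 against 4 samples allow). The epithelial and intestinal markers KRT8, KRT18, EPCAM and CDX2 were present at 14.1 to 97.6 CPM. KRT19, CDH1, CDX1 and LGR5 had no count in any sample, and VIL1 and GUCY2C had at most 7 counts, so several defining markers of colon epithelium were absent. Markers of blood, fibroblast and endothelial cells had at most 4 counts per sample.

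Of the 78 genes, 77 had enough counts to be tested. MRPS24, a small subunit protein, was the exception, with 4 to 13 counts per sample. It had 0.233, 0.157, 0.309 and 0.296 CPM with control siRNA and 0.379, 0.358, 0.246 and 0.188 CPM with A20 siRNA. These groups overlapped fully. Its exons share 23.3% of their length on the same strand with the readthrough gene URGCP-MRPS24, and STAR's gene counting leaves a read that overlaps more than one gene out of both. Most of its exonic length is free of that overlap, and whether this rule accounts for its few counts was not tested. Of the 78 genes, 15 overlap another annotated gene in an exon on the same strand and 29 on the opposite strand, 40 in all. The overlap exceeded 50% of exonic length for MRPL12 (69.5%, same strand), MRPL53 (72.9%, same strand) and MRPS18A (50.9%, opposite strand), so their values are less certain. There are 79 annotated pseudogenes derived from 36 of the genes, 8 of them from MRPS21, and reads that match a copy equally well are not in unique counts.

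No mitochondrial ribosomal protein transcript passed the threshold in either direction. With edgeR's quasi-likelihood test and p-values adjusted over all 13412 tested genes (threshold 0.05), A20 siRNA lowered 0 of 77 and raised 0, where 0.611% of all tested genes were lower and 0.634% were higher. At an unadjusted p-value under 0.05, 19 of the 77 were lower and 0 higher, against 7.37% and 8.81% of all tested genes. DESeq2 called 2 of them lower (MRPL41 and MRPS18C, against 0.91% of all genes) and 0 higher (0.619%). These shares are over all 13412 genes, some of which DESeq2 gave no adjusted p-value. limma-voom called 0 lower (0.626%) and 0 higher (0.604%). The fitted log2 fold change was below 0 for 65 of 77 (84.4%) and above 0 for 12, against 48.4% and 51.6% of all tested genes. The median was -0.046, against 0.003 for all tested genes. Genes of one list move together within a sample, so the count of signs does not hold 77 separate measurements. In a bulk measurement of this kind, fewer cells of a type and less RNA per cell cannot be told apart.

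The intervals were narrow. For 62 of the 77 transcripts the 95% interval of the log2 fold change lay wholly within 0.2 of 0, for 70 it lay within 0.3, and for 19 it left out 0. The transcripts with wider intervals were mostly of low level. They were MRPL38, MRPL45, MRPL46, MRPL53, MRPS12, MRPS18C and MRPS28, with 1.36 to 15.5 CPM in the control samples.

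**Figure D1:**
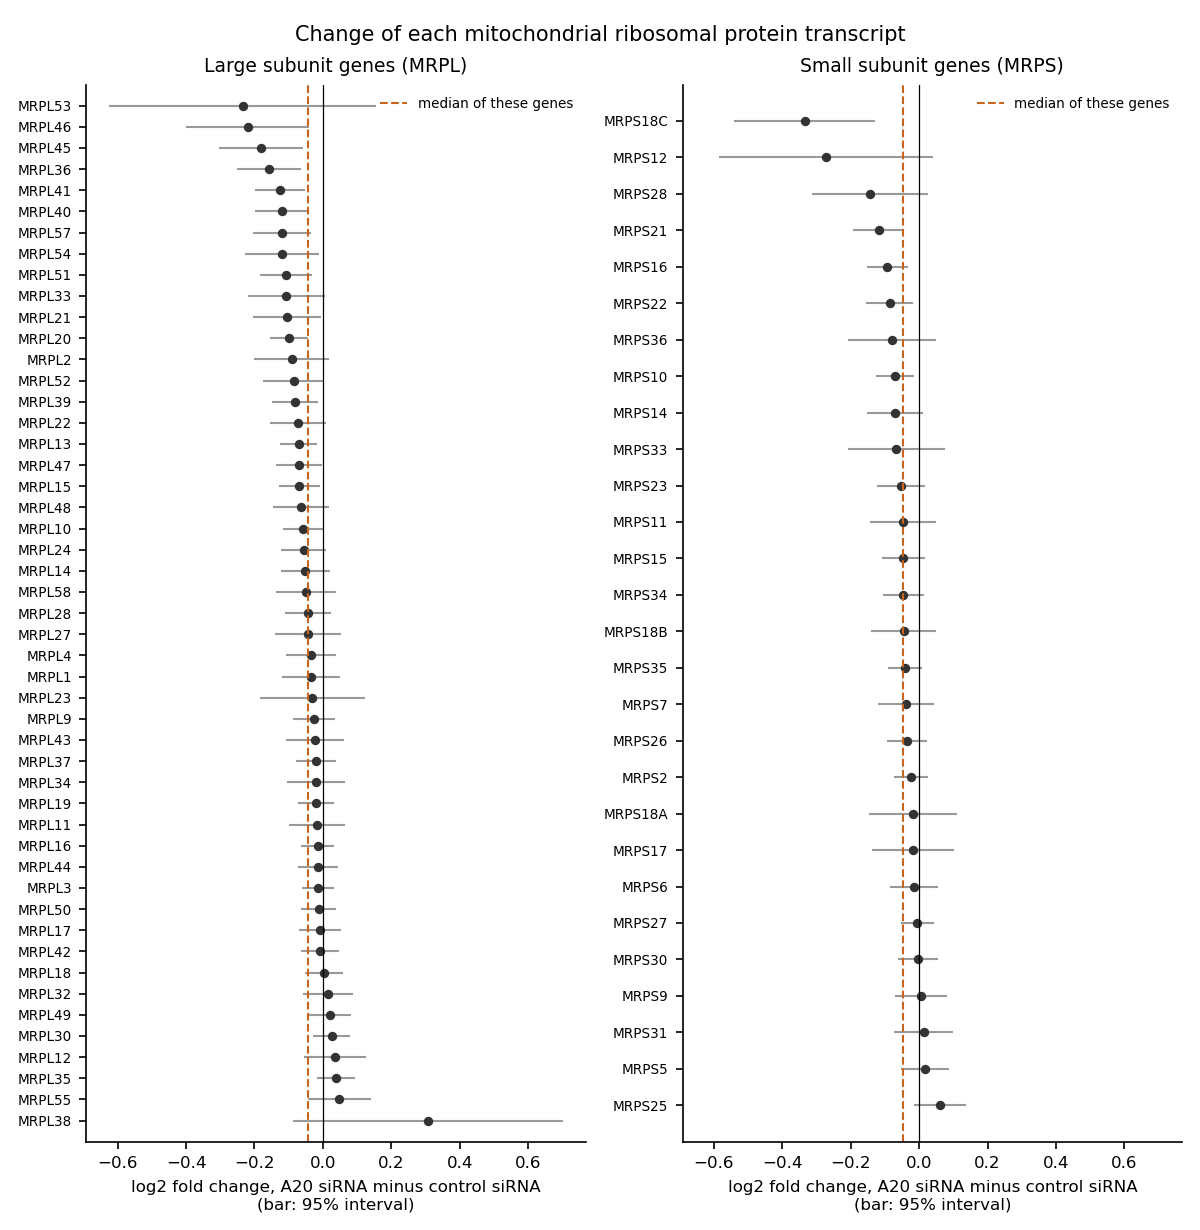
Log2 fold change of each of the 77 tested transcripts (A20 siRNA minus control siRNA, n = 4 each), with its 95% interval from edgeR as a bar, in the 49 large subunit genes (left) and 28 small subunit genes (right). The dashed lines mark the medians, -0.043 and -0.046, and 19 of the bars leave out 0, all on the lower side.

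The samples differed among themselves by as much as the groups did. The 78 genes together took 0.495%, 0.511%, 0.505% and 0.511% of all counts in control replicates 1 to 4, and 0.495%, 0.504%, 0.488% and 0.486% with A20 siRNA. The group means were 0.505% ± 0.00740 and 0.493% ± 0.00814 (SD, n = 4 each), and control replicate 1 was within the A20 siRNA range. For each sample the deviation of every tested gene from its own mean over the 8 samples was taken on the log2 scale, and its median over the 77 genes was -0.005, 0.035, 0.020 and 0.061 in the control samples and -0.017, 0.012, -0.041 and -0.060 in the A20 siRNA samples. The lowest control sample was replicate 1 and the highest A20 siRNA sample was replicate 2, and these overlapped. Of the 77 transcripts, 33, 60, 54 and 67 were above their own mean in the control samples and 31, 49, 14 and 16 in the A20 siRNA samples.

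The same samples also differed in how levels followed transcript length over all genes. Spearman's rho between the deviation of a gene and its exonic length was 0.0794, -0.164, -0.111 and -0.20 in the control samples and 0.0686, -0.0816, 0.144 and 0.178 in the A20 siRNA samples, a description across genes, which are not replicates. The sign in the first control sample and the second A20 siRNA sample was that of the other group. Mitochondrial ribosomal protein genes are short, and the median of their summed exons was 2539 bases, where that of the tested genes as a whole was 4982. Of the 77, 48 fell in the shortest quartile of all tested genes, where the median log2 fold change was -0.022 for all genes and -0.054 for these 48 (43 lower). In the next 3 quartiles the medians of all genes were -0.007, 0.005 and 0.022. Those of the mitochondrial ribosomal protein genes there were -0.030 (n = 17), -0.060 (n = 6) and -0.006 (n = 6), so their median was below that of all genes in every quartile. Once the length trend of every library was taken out by loess, the median was -0.027 and 55 of 77 were lower (71.4%, against 50.2% of all genes so corrected). Then 0 were called lower (0.796% of all genes) and 0 higher (0.646%).

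**Figure D2:**
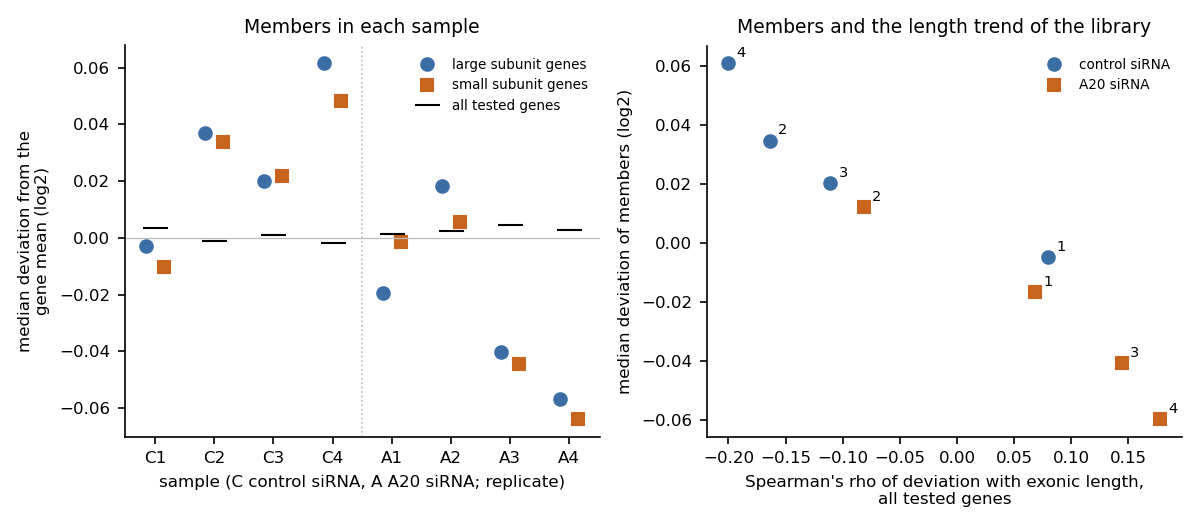
Left, the median deviation (log2) of large and small subunit transcripts from each gene's mean in every sample, with the median over all tested genes as a black dash. Right, the median deviation of the 77 transcripts against the sample's own Spearman's rho of deviation with exonic length over all tested genes, numbered by replicate; control replicate 1 (rho 0.0794) and A20 siRNA replicate 2 (rho -0.0816) sit among samples of the other group.

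The count of calls changed with the fit and with single samples. It was 7 without the count filter (MRPL36, MRPL41, MRPL51, MRPL57, MRPS16, MRPS18C and MRPS21, against 1.08% of all genes). That share is over 28754 genes, where the filter kept 13412, so it takes in many genes of few counts. The count was 3 with the replicate block (1.58%), 1 when length and GC content were corrected (0.909%), and 2 when the block and that correction were joined (1.67%). Without control replicate 1, 8 transcripts were called lower (MRPL13, MRPL20, MRPL36, MRPL40, MRPL41, MRPL47, MRPL57 and MRPS16, against 3.18% of all genes). Without A20 siRNA replicate 1 there were 3 (MRPL36, MRPL51 and MRPS18C, against 1.12% of all genes), without A20 siRNA replicate 2 there was 1 (MRPL41, against 1.14%, a like share), and without any other sample there were 0. Without both control replicate 1 and A20 siRNA replicate 2, 12 were called lower, against 3.61% of all genes. These samples were picked for their length trend, but they are also the lowest control and the highest A20 siRNA sample by the median deviation given above, so a larger difference followed from the choice. No fit called any of them higher, where the share of all genes higher was 1.09% without the count filter, 1.95% with the block, 0.766% with the length and GC correction, 4.19% without control replicate 1 and 4.59% without both samples.

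The subunits were compared by symbol and by place. The median log2 fold change was -0.043 for the 49 tested MRPL genes (41 lower) and -0.046 for the 28 tested MRPS genes (24 lower). Assigned by place in the ribosome instead, with MRPS30 and MRPS18A in the large subunit and MRPS36, which is not a ribosomal protein, left out, the medians were -0.043 for 51 genes and -0.046 for 25. The summed level of large subunit transcripts was 1.88, 1.89, 1.89 and 1.88 times that of small subunit transcripts in the control samples and 1.88, 1.88, 1.88 and 1.88 times in the A20 siRNA samples. The means of this ratio were 1.882 ± 0.00707 and 1.880 ± 0.00259 (SD, n = 4 each), a difference smaller than the SD of the controls.

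The parts of the ribosome were described by their medians. In the large subunit, proteins with a bacterial counterpart had a median of -0.035 (24 of 30 lower) and mitochondria-specific proteins -0.065 (19 of 21 lower). In the small subunit the values were -0.047 (13 of 15 lower) and -0.044 (8 of 10 lower). The stalk proteins MRPL10, MRPL11 and MRPL12 had a median of -0.016, with 74.3 and 71.4 CPM for MRPL10 in the control and A20 siRNA groups. The 7 genes of the exit tunnel had a median of -0.056 (6 lower), and the 8 of the central protuberance -0.046 (5 lower). None of these genes passed the adjusted threshold, and none of these differences between parts was tested.

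Promoter sequences are shown for the 4 transcripts with the smallest p-values, so that it can be seen whether they share upstream elements. The 120 bases before the RefSeq start site (GRCh38.p14) are given 5′ to 3′ on the gene's strand, with capitals marking any of 6 motifs searched on both strands. Those were an ETS site as bound by GABPA (CCGGAAG), a YY1 site (AAGATGGC), an NRF1 site, the E-box CACGTG, the CCAAT box and TATAAA. GABPA and NRF1 are activators known for nuclear genes of mitochondrial function.
MRPL20, chr1:1407294-1407413, minus strand: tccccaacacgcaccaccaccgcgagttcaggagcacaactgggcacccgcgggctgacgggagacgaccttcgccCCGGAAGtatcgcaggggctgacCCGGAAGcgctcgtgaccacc
MRPL41, chr9:137551759-137551878, plus strand: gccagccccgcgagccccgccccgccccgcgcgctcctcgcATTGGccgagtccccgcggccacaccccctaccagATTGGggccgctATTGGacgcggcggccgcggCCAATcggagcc
MRPL36, chr5:1799838-1799957, minus strand: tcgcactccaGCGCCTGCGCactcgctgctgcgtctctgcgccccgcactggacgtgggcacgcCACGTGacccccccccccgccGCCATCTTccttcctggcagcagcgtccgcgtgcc
MRPS18C, chr4:83455938-83456057, plus strand: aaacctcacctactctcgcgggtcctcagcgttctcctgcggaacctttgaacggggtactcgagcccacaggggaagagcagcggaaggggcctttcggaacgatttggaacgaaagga

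No motif was in more than 1 of these 4 stretches. MRPL20 held ETS matches, MRPL41 held CCAAT boxes on either strand, MRPL36 held an NRF1 match, an E-box and a YY1 match, and MRPS18C held none of the 6 in these bases. The stretch of MRPS18C begins past the GENCODE start of the gene (83455932), so it does not cover the bases upstream of that start. Over the RefSeq windows from 250 bases before to 50 after the start, 69 of the 78 genes matched, with 85 windows, against 22198 windows of coding genes. ETS matches were in 38.8% of the mitochondrial ribosomal protein windows (30 genes) and 12.8% of all. YY1 matches were in 27.1% (21 genes) and 3.53% of all, and either was in 54.1% and 15.6%. NRF1 matches were in 11.8% and 7.38%, E-boxes in 10.6% and 8.34%, CCAAT boxes in 32.9% and 34.7%, and TATAAA in 3.53% and 9.47%. In these longer windows the same 4 genes did share motifs, with ETS matches for MRPL20 and MRPS18C, YY1 matches for MRPL20 and MRPL36, E-boxes for MRPL36 and MRPS18C, and CCAAT boxes for MRPL41 and MRPS18C. No window of the 69 genes held ETS and YY1 matches that overlap by sharing the letters AAG, the only form of overlap searched. These are shares of windows with given letters and not measured binding. The windows of all coding genes were not limited to genes tested here, while almost all of the mitochondrial ribosomal protein genes were tested. How far this affects the shares was not tested.

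The 12 transcripts with the smallest p-values were all lower after A20 siRNA in the fit, and all had adjusted p-values between 0.0631 and 0.180. MRPL20 (chromosome 1, 1401909 to 1407293, GRCh38) encodes a large subunit protein with a bacterial counterpart. It had 70.9, 72.7, 70.9 and 72.9 CPM with control siRNA and 67.8, 67.6, 66.7 and 65.9 CPM with A20 siRNA. Every A20 siRNA sample lay below every control sample, and both groups were tight (71.9 ± 1.09 and 67.0 ± 0.887 CPM, SD, n = 4 each). The fitted log2 fold change of -0.10 had a standard error of 0.027 and an adjusted p of 0.0631 (edgeR). Part of its exonic length (15.6%) overlaps other genes, among them the antisense gene MRPL20-AS1, and the strand setting of the counts is not stated.

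MRPL41 (chromosome 9, 137551879 to 137552555) encodes a mitochondria-specific large subunit protein. It had 118.9, 127.8, 123.5 and 127.1 CPM with control siRNA and 117.0, 121.2, 109.5 and 106.9 CPM with A20 siRNA. A20 siRNA replicate 2 was above control replicate 1, so the groups overlapped. Its log2 fold change, -0.13 with a standard error of 0.034, had an adjusted p of 0.0710 with edgeR and 0.0449 with DESeq2. Of the 18 alternative settings, 8 gave an adjusted p-value under 0.05, more than for any other of these genes.

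MRPL36 (chromosome 5, 1798385 to 1801366), the counterpart of a small zinc-binding protein of the bacterial large subunit, had 33.6, 33.7, 34.6 and 36.4 CPM with control siRNA and 33.0, 31.8, 28.6 and 29.9 CPM with A20 siRNA. The groups did not overlap, as held for 9 of the 77 transcripts, against 3.9% of all tested genes. Its log2 fold change of -0.16 had a standard error of 0.044 (edgeR adjusted p = 0.0761). The other 8 transcripts with every A20 siRNA sample below every control sample were MRPL20, MRPL40, MRPL45, MRPL54, MRPS10, MRPS16, MRPS18C and MRPS35. For 0 transcripts was every A20 siRNA sample above every control sample, against 3.71% of all tested genes.

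MRPS18C (chromosome 4, 83455932 to 83469735) had the lowest fitted log2 fold change of the 77. It is the paralog that takes the place of bacterial S18 in the small subunit. It had 9.71, 10.1, 9.99 and 10.1 CPM with control siRNA and 9.54, 8.38, 7.08 and 5.83 CPM with A20 siRNA. The control samples were close together while the A20 siRNA samples were spread, with replicate 1 just under the controls. The log2 fold change of -0.33 had a standard error of 0.099 and an adjusted p of 0.0941 with edgeR and 0.0465 with DESeq2. Its exons overlap ABRAXAS1 on the opposite strand over 40.2% of their length. Its paralogs differed less. MRPS18A, whose protein sits in the large subunit, had 16.2 ± 0.813 and 15.8 ± 1.501 CPM (log2 fold change -0.02, which turned positive after the length correction), and MRPS18B, of the small subunit, had 27.9 ± 1.38 and 27.0 ± 1.28 CPM (log2 fold change -0.05; SD, n = 4 each). Both overlapped between groups.

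**Figure D3:**
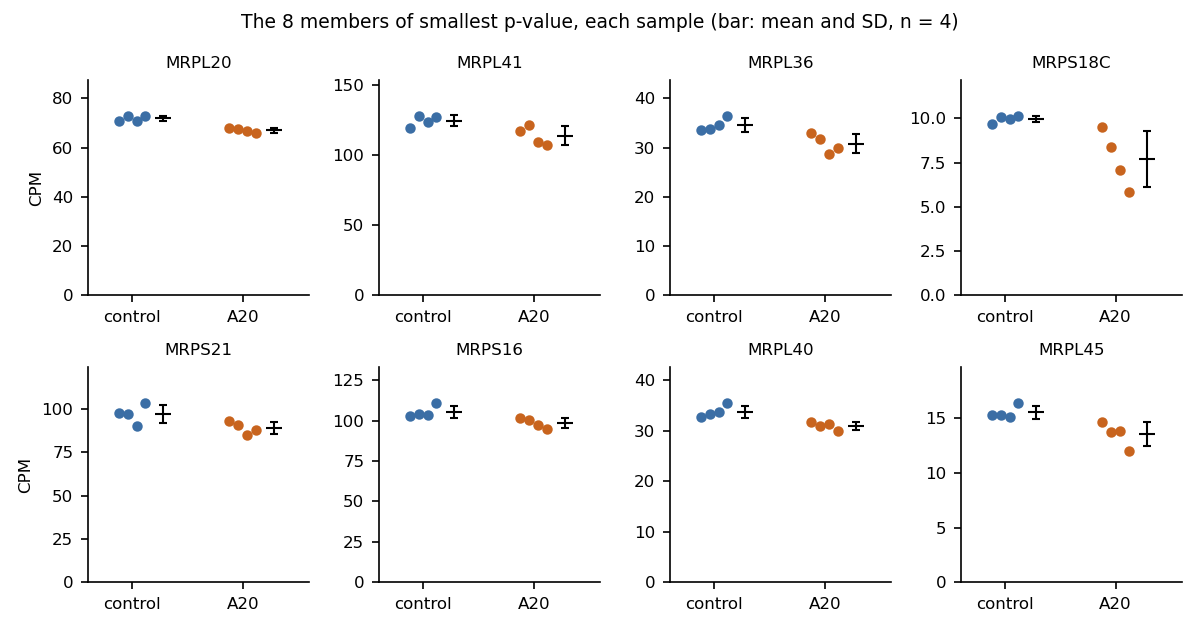
CPM in every sample for the 8 transcripts with the smallest p-values, in replicate order within each group, with the mean and SD (n = 4) beside the points and axes from 0. In 6 of the 8 panels every A20 siRNA point is below every control point, and MRPL41 and MRPS21 overlap.

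The next transcripts in order of p-value had smaller or noisier differences. MRPS21 and MRPS16 encode small subunit proteins with bacterial counterparts. MRPS21 had 97.6, 96.8, 90.2 and 103.3 CPM with control siRNA and 93.0, 90.9, 84.8 and 87.8 CPM with A20 siRNA, overlapping through control replicate 3 (log2 fold change -0.12, adjusted p = 0.102 from edgeR). MRPS16 had 102.9, 104.1, 103.5 and 110.8 CPM and 101.3, 100.3, 97.3 and 95.1 CPM, without overlap (log2 fold change -0.09, adjusted p = 0.109 from edgeR). MRPL40, of the central protuberance, was at 32.7 to 35.5 CPM and 29.9 to 31.8 CPM (log2 fold change -0.12, adjusted p = 0.111). MRPL45, which lies at the exit tunnel and anchors the ribosome to the inner membrane, had 15.3, 15.3, 15.1 and 16.4 CPM with control siRNA and 14.7, 13.7, 13.8 and 11.99 CPM with A20 siRNA (log2 fold change -0.18, adjusted p = 0.127). These last groups also stood apart. MRPL51, MRPL57, MRPL13 and MRPS10 had log2 fold changes of -0.11, -0.12, -0.07 and -0.07 with adjusted p-values of 0.134, 0.140, 0.172 and 0.180, and among them the groups stood apart for MRPS10.

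The largest fitted changes lay among transcripts of low level. MRPS12, the counterpart of the decoding site protein S12, had 4.59, 4.50, 4.59 and 6.76 CPM with control siRNA and 5.22, 4.40, 3.81 and 2.87 CPM with A20 siRNA. Its log2 fold change of -0.27 was -0.12 without the high control replicate 4, -0.16 without A20 siRNA replicate 4 and -0.44 without A20 siRNA replicate 1 (adjusted p = 0.386 with all samples, edgeR). MRPL53, a mitochondria-specific large subunit protein, had 1.26, 1.80, 1.77 and 2.28 CPM and 1.57, 1.29, 1.88 and 1.18 CPM (log2 fold change -0.23, standard error 0.19, adjusted p = 0.582), and leaving out a sample gave -0.38 (control replicate 1) to -0.10 (control replicate 4). The groups overlapped in both. Among the 12 with a positive value, MRPL38 of the central protuberance stood at 1.53, 1.21, 1.04 and 1.65 CPM and 1.66, 2.22, 1.47 and 1.27 CPM (log2 fold change 0.31, 95% interval -0.09 to 0.70, adjusted p = 0.444, and 0.20 without control replicate 3 and 0.14 without A20 siRNA replicate 2). Those groups overlapped. MRPS25 had 33.4 ± 1.01 and 34.8 ± 0.870 CPM (log2 fold change 0.06, adjusted p = 0.435) and MRPL55 had 24.0 ± 1.02 and 24.8 ± 0.902 CPM (log2 fold change 0.05, adjusted p = 0.637; SD, n = 4 each), and both overlapped.

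Levels of different genes were compared as CPM per kilobase of exonic length. In the control samples the median over the 77 genes was 19.6 CPM per kb, the upper and lower quartiles differed by 3.34-fold and the highest and lowest gene by 526-fold. The highest was MRPL41 at 214 ± 6.98 CPM per kb, apart from the next gene in every control sample. It was followed by MRPS26 at 96.7 ± 2.12 and MRPS34 at 93.8 ± 3.52, which overlapped with each other and stood above the rest. Next came MRPL37 at 84.3 ± 3.58, MRPL51 at 81.2 ± 3.98 and MRPL3 at 78.5 ± 1.12 CPM per kb (SD, n = 4 each), each overlapping with the next lower gene. MRPL3 encodes a core protein near the peptidyl transferase centre, and MRPS26, MRPS34 and MRPL37 encode mitochondria-specific proteins. The lowest were MRPL38 at 0.406 ± 0.084, MRPL46 at 1.25 ± 0.140, MRPS25 at 1.82 ± 0.055, MRPS18C at 2.05 ± 0.039, MRPS33 at 2.55 ± 0.243 and MRPL53 at 2.60 ± 0.608 CPM per kb, of which the last pair overlapped. Exons of MRPL38 and MRPL46 share 41.1% and 11.3% of their length with another gene on the same strand, where reads are left out of the counts. The levels of MRPL38 and MRPL46, and with them the 526-fold range, are therefore less certain. Of the 76 neighbouring pairs in this order, 19 did not overlap in the control samples.

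The order depended in part on the length used. Annotated exons of MRPS25 cover 18309 bases, so its level per kilobase is low at 33.4 CPM. Those of MRPL46 cover 6402 bases, where its longest coding transcript has 1002. Over all samples its level was 1.16 CPM per kb by the first length and 7.4 by the second. With the length of the longest coding transcript in place of all exons, 7 of the 10 highest genes were shared and Spearman's rho of the orders was 0.893, across genes. Levels by that length ran from 204 (MRPL41) to 1.11 (MRPL38) CPM per kb over all samples, a narrower range than the 526-fold above. MRPL46 is transcribed away from MRPS11 from start sites 63 bases apart, and the pair had control levels of 8.03 ± 0.895 CPM for MRPL46, with log2 fold changes of -0.22 (adjusted p = 0.204) and -0.05 for MRPL46 and MRPS11. Of the high genes, MRPS26, MRPS34, MRPL37 and MRPL3 had log2 fold changes of -0.04, -0.05, -0.02 and -0.01 (the last pair turned positive after the length correction).

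**Figure D4:**
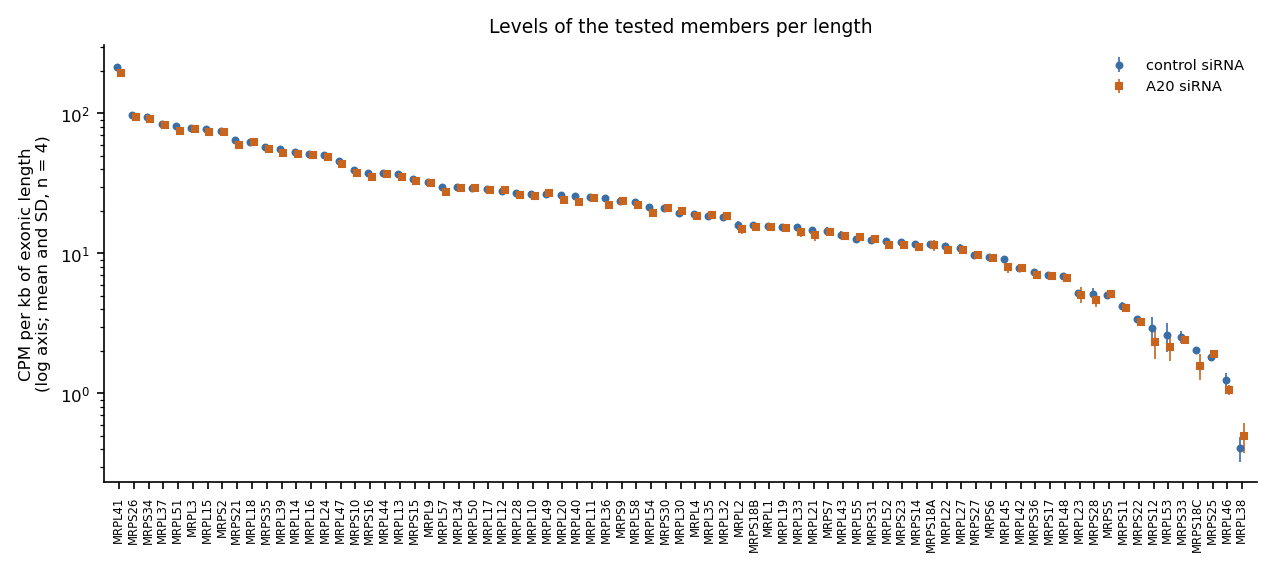
Level of the 77 tested transcripts as CPM per kilobase of exonic length (log axis; mean and SD, n = 4) with control and A20 siRNA, ordered by the control level. The order runs from MRPL41 at 214 to MRPL38 at 0.406 CPM per kb, and the points of both groups lie close to each other along it.

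Many of the genes start near a coding gene on the opposite strand. Such a neighbour, with GENCODE gene starts within 1000 bases in either direction, was found for 27 of the 77 (35.1%), against 19.2% of 11310 tested coding genes. Some of these pairs overlap instead of diverging, as do MRPL51 and NCAPD2 (27.6% of the exonic length of MRPL51). Of these neighbours 25 were tested, 13 were lower and 0 were called. Their median log2 fold change was -0.009, against -0.047 for the 25 mitochondrial ribosomal protein genes beside them. MRPL46 and MRPS11 are neighbours of each other, so both are on each side of this comparison. MRPL36, by its GENCODE start (1801366), lies 41 bases from NDUFS6, a complex I gene, whose log2 fold change was -0.10. The promoter sequence shown above for MRPL36 (1799838 to 1799957) precedes another start, from RefSeq, and is not the stretch between these 2 genes. MRPS18C, by its GENCODE start (83455932), lies 77 bases from HELQ, at 0.01. The sequence shown above for MRPS18C (83455938 to 83456057) is likewise not the stretch between these genes.

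Other genes of mitochondrial translation were described beside them. Mitoribosomal proteins with other symbols (DAP3, PTCD3, AURKAIP1, CHCHD1 and GADD45GIP1) had log2 fold changes of 0.01, 0.06, -0.07, -0.09 and -0.06. Their median was -0.063. The 15 mitochondrial translation factors and related genes, LRPPRC and OXA1L among them, had a median of 0.001 (7 lower). The 25 assembly factors had a median of 0.002 (12 lower). The 21 tested genes listed with the mitochondrial tRNA synthetases had a median of -0.026 (16 lower). That list includes the amidotransferase subunit genes QRSL1, GATB and GATC. It also includes KARS1 and GARS1, which encode the cytosolic enzymes as well. None of the genes of these lists passed edgeR's adjusted threshold in either direction, and DESeq2 and limma-voom also called 0. At an unadjusted p-value under 0.05 (edgeR) the count over the 5, 15, 25 and 21 tested genes of these lists was 4 lower and 5 higher. Of all tested genes, 7.37% were lower and 8.81% higher at that level, so these counts do not stand out. SARS2, a tRNA synthetase gene beside MRPS12, had no count in any sample. Whether its reads were left out by the counting rule described for MRPS24 was not tested.

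The mRNAs that this ribosome translates had mostly positive values. Of the 13 mRNAs encoded by mitochondrial DNA, 8 rose past the adjusted threshold in edgeR, against 0.634% of all tested genes, and 0 fell. They were MT-ND1, MT-ND2, MT-ND4, MT-ND5, MT-ND6, MT-CO1, MT-ATP6 and MT-CYB, with log2 fold changes of 0.19 to 0.28. Control replicate 2 was the lowest sample for each of these mRNAs. They move together within a sample, so their calls are not separate results. With DESeq2 4 rose, and with single samples left out 1 to 8 did, the fewest without A20 siRNA replicate 3. The ribosomal RNAs of the particle, MT-RNR1 and MT-RNR2, had log2 fold changes of 0.50 and 0.31 and did not pass. MT-RNR2 was called higher with the replicate block and without A20 siRNA replicate 1, and both were called with the block and the corrections for length and GC content and without the count filter. MT-RNR1 had 253.3, 223.2, 602.5 and 461.9 CPM with control siRNA and 227.6, 655.0, 619.3 and 677.3 CPM with A20 siRNA and the groups overlapped widely. The cytosolic ribosomal protein genes had a median of -0.11, with 79 of 83 lower and 16 called lower (against 0.611% of all tested genes), where the mitochondrial ones had -0.046 and 0 called. The difference between these lists was not tested.

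**Figure D5:**
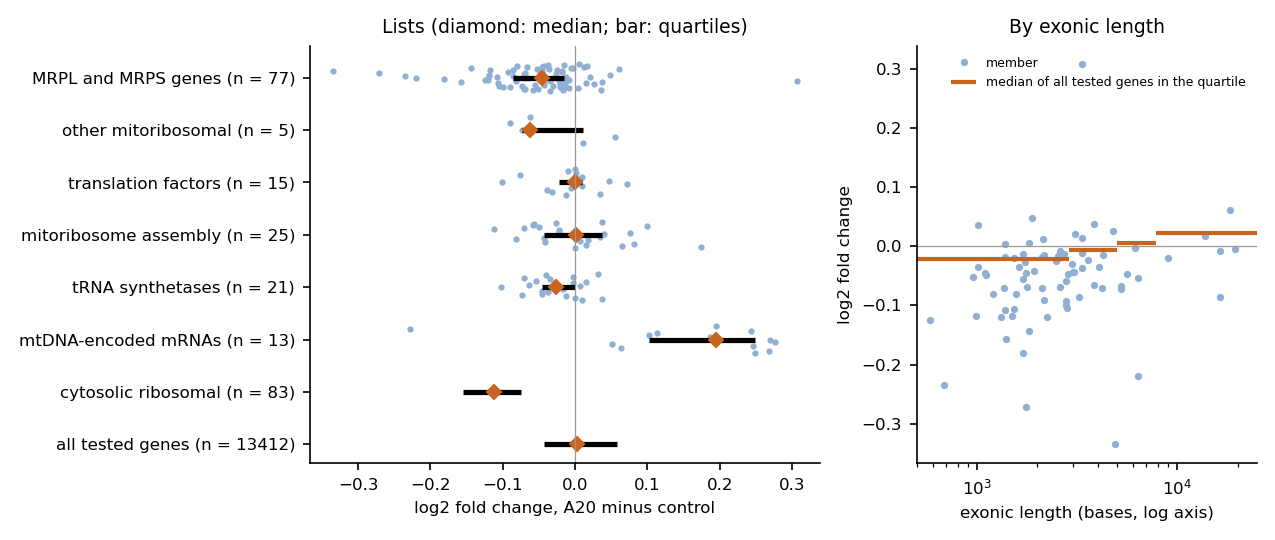
Left, log2 fold changes by list, with each gene as a dot for the mitochondrial lists, the median as a diamond and the quartiles as a bar. Right, log2 fold change of the 77 transcripts against exonic length (log axis), with the median of all tested genes in each quartile of length as a line, from -0.022 in the shortest to 0.022 in the longest; most dots lie below the line of their quartile.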

How the data were processed

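RNAseq counts of 8 RKO samples were analysed, 4 with control and 4 with A20 siRNA, grouped by the sample labels. The authors trimmed reads with Trimmomatic, mapped them to GRCh38 (p7) with STAR on a GENCODE annotation and deposited raw counts of uniquely mapping reads per gene. The GENCODE release and strand setting are not given in the sources used here. The mitochondrial ribosomal protein genes and all lists were chosen with earlier results of these data known.

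Counts were filtered with filterByExpr (minimum count 10), normalized by TMM and tested without covariates with edgeR 4.0.16 (quasi-likelihood test, R 4.3.3) over all 13412 genes kept, with Benjamini-Hochberg adjustment and a threshold of 0.05. CPM are TMM-scaled. Symbols, coordinates and exonic lengths are from GENCODE 44 on GRCh38, to which 56948 of 57992 genes matched by Ensembl identifier without version, and 29238 genes had no count. Promoters are from RefSeq (GRCh38.p14). Named transcripts were those with an adjusted p-value under 0.05, the 12 smallest p-values, the 3 highest and 3 lowest fold changes, the 5 highest and 5 lowest levels per kilobase, those not tested and the MRPS18 paralogs. Of other lists, genes with an adjusted p-value under 0.05 were named. Genes named beside these, such as the other mitoribosomal proteins, NDUFS6, HELQ and the overlapping genes, were chosen after their values were seen. Alternatives were RLE normalization, no count filter, a stricter filter (10 counts or more in all samples), limma-voom (limma 3.58.1), DESeq2 1.42.0, the replicate number as a block, per-sample loess corrections for exonic length or length and GC content (span 0.5), and samples left out. The pipeline was tested on simulated data. Total counts per sample were 21226451 to 34194273, and detection floors cover counting error only.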

Additional observations from a re-analysis of the deposited data

Results flagged for a closer look

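Named transcripts were searched for samples standing far off, 52 groups of 4 in all (the gap to the nearest sample as a share of the group's range, Dixon's critical value 0.829). There were 8 such samples, where chance would give 2.6 if the groups were independent. Most of these genes were named by their values in the same data, and genes of one list move together within a sample. The 2.6 is therefore only a rough guide. MRPL13 had 147.4 CPM in control replicate 1, below 156.9 to 157.2 CPM in the other controls, and 151.4 CPM in A20 siRNA replicate 2, above 145.5 to 145.8 CPM in the others. These are the same samples whose length trend had the sign of the other group. In control replicate 4, MRPL45 (16.4 CPM), MRPS12 (6.76 CPM) and MRPS16 (110.8 CPM) each lay above the other controls. MRPL55 was low in A20 siRNA replicate 3 (23.4 CPM against 25.1 to 25.3 CPM). MRPS18B was high in A20 siRNA replicate 2 (28.9 CPM against 26.2 to 26.6 CPM). TNFAIP3 was low in A20 siRNA replicate 2 (3.01 CPM against 3.40 to 3.47 CPM).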

How the results depend on the processing

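The count of mitochondrial ribosomal protein transcripts called lower (0) became 7 without the count filter, 2 with DESeq2, 1 with the length and GC correction, 0 to 8 with a sample left out, and 12 without both control replicate 1 and A20 siRNA replicate 2. It stayed at 0 with limma-voom, RLE normalization, the stricter filter and the length correction, and no setting called any higher. The cause was not tested, except that the fits differ by construction in the genes or samples used. Same-numbered samples had correlations of deviation of -0.00982 to 0.0838 and 4 of 8 samples correlated best with their own number, so the numbers were not taken to pair the samples. With the replicate block 3 transcripts were called lower (MRPL41, MRPS18C and MRPS21), and 2 once length and GC were also corrected (1.67% of all genes). Of the 18 alternatives, MRPL41 was called in 8, MRPS18C in 5 and MRPL36 in 4.

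Other mitochondrial translation genes called lower (0) became 1 without the count filter (MT-ATP8), 1 with the length correction, 1 with length and GC, 1 with the replicate block and those corrections, 1 without the pair of samples above (GARS1 each time) and 0 to 1 with a sample left out. Those called higher (8) became 4 with DESeq2, 1 to 9 with a sample left out, 10 without the pair of samples, 11 with the replicate block, and 12 without the count filter and with the block and both corrections. The median log2 fold change stayed negative in every setting. With a sample left out it was -0.062 to -0.032 over all, -0.062 to -0.034 for large and -0.062 to -0.029 for small subunit genes, and without the pair of samples these medians were -0.074, -0.076 and -0.073. Reversed single values, none past the threshold, were MRPL3 (0.0065, 0.0073 and 0.0075 with the length, length and GC, and block with length and GC corrections), MRPL37 (0.0018, 0.0021 and 0.0027) and MRPS18A (0.011, 0.0092 and 0.0086, and -0.080 to 0.035 with samples left out, positive at 0.012 without control replicate 4). TNFAIP3 stayed between -0.77 and -0.67 with a sample left out, and DESeq2 gave it no adjusted p-value. Without counts from mitochondrial DNA, the share of counts was 0.513% with control and 0.502% with A20 siRNA.

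At this depth the lowest tested transcript had at least 25 counts in each sample. Intervals of transcripts under about 10 CPM remained wide, and the strand and release of the counting leave overlapping genes and genes with pseudogene copies uncertain.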
